A study of Homo sapiens with 8 samples.

Results

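The genes of the hypoxia-inducible factor (HIF) pathway examined here were the factor subunits HIF1A and EPAS1 (which encodes HIF-2 alpha) and 8 HIF targets, namely the glucose transporter gene SLC2A1, the glycolytic genes PGK1, LDHA and PFKFB3, the angiogenic factor VEGFA, the vasodilator peptide gene ADM, the stress-response gene NDRG1 and the carbonic anhydrase gene CA9. The peaks examined were all H3K27ac peaks lying in the body of each gene or within 30 kb on either side (GENCODE release 44, hg38). After merging of peaks that shared or adjoined bases in any of the 6 lists, these regions held 127 of the 143733 intervals of the genome. H3K27ac ChIP-seq had been performed on HCEC-1CT cells, a line of immortalized human colonic epithelial cells, with 3 libraries of wild-type (WT) parental cells and 3 libraries of cells lacking the histone acetyltransferase CREBBP (CREBBP-KO, labelled CBP KO). The libraries of a genotype came from separately grown populations, and both genotypes were grown in normoxia, with no drug named in the labels. Per the study, the line is immortalized with CDK4 and hTERT, and the edit was made with doxycycline-inducible Cas9 and a synthetic guide. The study's ChIP-seq methods call the CREBBP-KO cells monoclonal, while its account of how the lines were made says that several clones of each target were combined, with a matching pool of parental subclones. Which of these was used for the libraries is not given in the sources used here, and any effect of clonal history cannot be told apart from that of the edit.

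HIF is a dimer of an oxygen-regulated alpha subunit and the constant beta subunit ARNT. In well-oxygenated cells prolyl hydroxylases of the EGLN family mark the alpha subunits for destruction by the VHL ligase, and the hydroxylase HIF1AN blocks their binding to the coactivators CREBBP and EP300. When oxygen falls, HIF accumulates, binds hypoxia response elements and recruits these acetyltransferases, which acetylate lysine 27 of histone H3 at active promoters and enhancers. H3K27ac was read here at the pathway's genes in cells with and without CREBBP.

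Each peak is described by a pair of values: its fold enrichment over local background, as the authors deposited it, and the percentile of that fold within the list of its own library, with 100 at the strongest peak. Genotypes were compared by the rank of each interval within its library, converted to a normal score and fitted with limma over all 34864 intervals that had a peak in all 6 libraries and a fold of at least 5 in all 3 libraries of a genotype. The rank shift is the difference of these scores, CREBBP-KO minus WT, and a shift was called at a Benjamini-Hochberg adjusted p below 0.05. In each alternative fit the scores were computed anew over the intervals kept, so the size of a shift also depends on the filter. The lists held 93567, 92891 and 86163 peaks in WT and 111697, 105017 and 99008 in CREBBP-KO, and the read depth of each library is unknown. Of all tested intervals 34.2% had all CREBBP-KO percentiles above all WT ones and 15.2% had all of them below. With every list cut to the length of the shortest, these shares were 25% and 22.8%. Normal scores have the same distribution in every library, so a change shared by all intervals cannot show in the rank shifts. Higher and lower are therefore relative to the other intervals, and a balance of the calls is favoured by the method. Of all tested intervals 18.6% were called higher and 18.7% lower. No promoter peak was found for the epithelial markers EPCAM, CDH1, KRT8 and KRT19, KRT18 had one in 5 of the 6 libraries, and the colonic markers CDX1, CDX2, VIL1 and HNF4A had none. All 5 mesenchymal markers (VIM, FN1, ZEB1, COL1A1 and COL1A2) had one in all 6 libraries, at percentiles 96.0 to 99.9, and 4 of them were called higher in CREBBP-KO. Their part in the results below was not tested. No blood or endothelial marker had a promoter peak. The promoter of CREBBP stayed acetylated in CREBBP-KO, with a shift of 0.46 (SE 0.18, limma adjusted p = 0.047), and the promoter of its paralogue EP300 had a shift of 0.05 (SE 0.17, limma adjusted p = 0.849). A promoter peak does not check the edit.

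Of the 127 intervals, 39 were tested, 17 had a peak in all 6 libraries but did not reach the fold, 21 had a peak in 3 to 5 libraries and 50 in fewer than 3. Of the 39, 6 were called higher in CREBBP-KO, 6 lower and 27 were not called, beside the 18.6% and 18.7% called over all tested intervals. The median shift was 0.09 over the members and 0.02 over all tested intervals. The intervals called higher were the promoters of SLC2A1, PFKFB3 and NDRG1 and intervals away from the promoters of LDHA, PFKFB3 and EPAS1. Those called lower lay in the regions of PFKFB3 (an upstream start and an interval in RBM17), PGK1, EPAS1, ADM and CA9. Of the 39 tested intervals 34 passed the fold filter in both genotypes, 3 through CREBBP-KO only and 2 through WT only. With no fold filter 56 member intervals were fitted, and 8 were called higher and 8 lower, beside 12.5% and 12.1% of all intervals in that fit. In the fit on ranks of the -log10 p in place of the fold, 3 member intervals were called higher and 6 lower, beside 12.4% and 12.9% of all intervals in that fit.

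**Figure D1:**
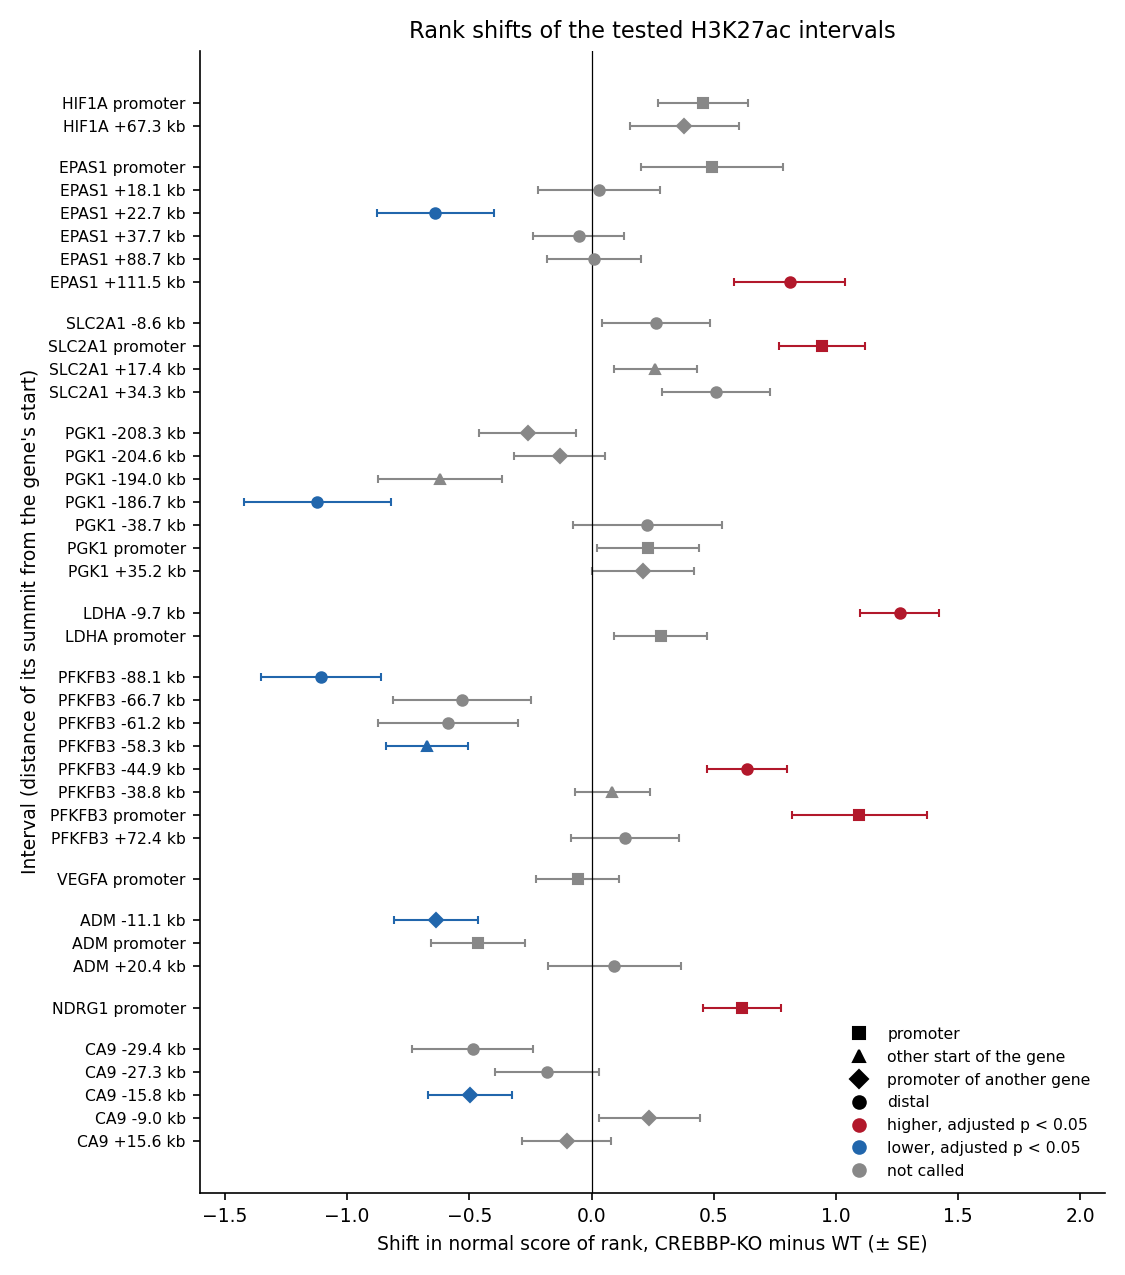
Rank shift of each of the 39 tested intervals in the 10 gene regions, in normal-score units (CREBBP-KO minus WT, points with SE bars), with the distance of its summit from the start of the gene. Squares are the gene's own promoter, triangles another start of the gene, diamonds promoters of other genes and circles distal intervals. The interval at -9.7 kb of LDHA had the highest shift, 1.26, and the one at -186.7 kb of PGK1 the lowest, -1.12.

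At the promoters, 9 of the 10 genes had an H3K27ac interval with a peak in all 6 libraries, and CA9 had no peak within 1 kb of its start in any library. SLC2A1, PFKFB3 and NDRG1 were called higher in CREBBP-KO, none was called lower and 6 were not called. Over all 9928 tested promoter intervals, 27.2% were called higher and 7.5% lower. The 9 promoters had a median shift of 0.46, against 0.22 for all tested promoters. For 5 of the 9 (EPAS1, SLC2A1, PGK1, PFKFB3 and NDRG1) all CREBBP-KO percentiles exceeded all WT ones. This was so for 34.2% of all tested intervals, and for 25% with lists of equal length, while the share over promoters alone was not computed. The EPAS1 and PFKFB3 promoters had passed the fold filter through CREBBP-KO only.

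**Figure D2:**
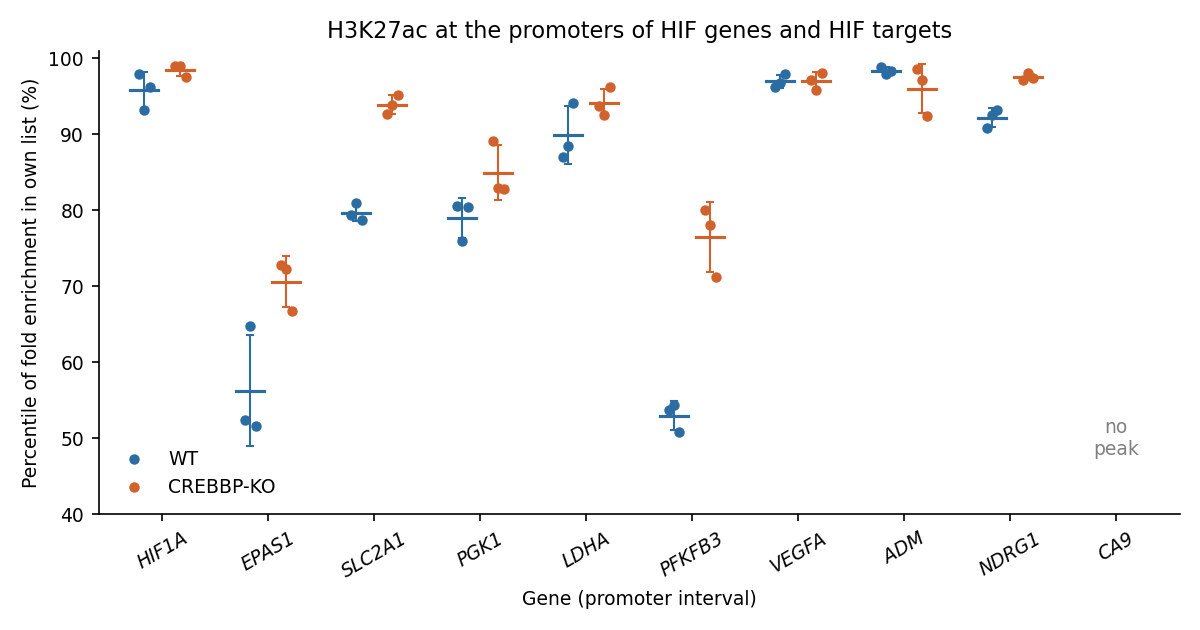
Percentile of the H3K27ac fold enrichment within each library's own peak list (vertical axis, %) at the promoters of the 10 genes (horizontal axis). Points are libraries, horizontal bars means and vertical bars SD (n = 3 per genotype). The SLC2A1 libraries lie between 78.7 and 80.9 in WT and between 92.7 and 95.2 in CREBBP-KO, while VEGFA lies between 95.8 and 98.1 in both genotypes.

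In WT the promoter levels were ordered, by mean percentile, as ADM (98.4), VEGFA (97.0), HIF1A (95.8), NDRG1 (92.2), LDHA (89.9), SLC2A1 (79.7), PGK1 (79.0), EPAS1 (56.3) and PFKFB3 (53.0). The ranges of neighbours in this order overlapped except between ADM and VEGFA, between LDHA and SLC2A1, and between PGK1 and EPAS1. In CREBBP-KO the order was HIF1A (98.5), NDRG1 (97.6), VEGFA (97.0), ADM (96.0), LDHA (94.1), SLC2A1 (93.9), PGK1 (84.9), PFKFB3 (76.5) and EPAS1 (70.6). There only SLC2A1 and PGK1, and PGK1 and PFKFB3, were neighbours without overlap. SLC2A1, which stood below the LDHA range in WT, overlapped it in CREBBP-KO.

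HIF1A (ENSG00000100644.17) encodes the oxygen-regulated subunit HIF-1 alpha and starts at position 61695513 of chromosome 14. Its promoter interval had fold enrichments of 20.6, 14.1 and 17.7 in WT and 24.9, 26.8 and 22.3 in CREBBP-KO. The CREBBP-KO folds were all above the WT folds, while the percentiles, 98.0, 93.1 and 96.3 against 99.0, 99.0 and 97.6, overlapped. The shift of 0.46 (SE 0.18) did not pass the threshold (limma adjusted p = 0.0551). This interval was 64839 bp wide and joined 4 to 10 peaks per library, and windows of 250 bp either side of each summit gave a shift of 0.43 (limma adjusted p = 0.0552). The interval at 67.3 kb, at the promoter of SNAPC1, had percentiles of 79.0, 71.6 and 84.8 in WT and 87.9, 86.3 and 85.6 in CREBBP-KO, which did not overlap, but its shift of 0.38 (SE 0.22) was not called (limma adjusted p = 0.184). It was 0.59 and called without WT replicate 3 (limma adjusted p = 0.0402) and 0.15 without WT replicate 2. The HIF1A region held 8, 10 and 11 peaks in WT and 17, 12 and 10 in CREBBP-KO (exact permutation test, two-sided, p = 0.3).

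EPAS1 (ENSG00000116016.14), the alpha subunit of HIF-2, had a weaker promoter signal. The fold was 4.46, 5.74 and 4.59 in WT and 6.30, 6.54 and 5.81 in CREBBP-KO. At percentiles of 52.4, 64.7 and 51.7 against 72.8, 72.2 and 66.7 the genotypes did not overlap. The shift of 0.49 (SE 0.29) was not called (limma adjusted p = 0.185), and the interval had entered the fit through CREBBP-KO only. Of the 20 intervals in the EPAS1 region, 6 were tested, and the strongest of them outside the promoter, at 37.7 kb in an intron, overlapped between genotypes with a shift of -0.05 (SE 0.19, limma adjusted p = 0.845). One interval was higher and one lower. Beyond the end of the gene, at 111.5 kb (chr2:46408121-46412297), the fold was 7.89, 5.92 and 7.28 in WT and 10.9, 12.0 and 10.9 in CREBBP-KO. All CREBBP-KO libraries lay above WT there, and the shift was 0.81 (SE 0.23, limma adjusted p = 0.00808). Ranked by -log10 p, it was no longer called (shift 0.35, limma adjusted p = 0.169). Inside the gene, at 22.7 kb in an intron (chr2:46318910-46322038), the fold was 13.5, 7.90 and 12.2 in WT and 8.70, 7.70 and 8.11 in CREBBP-KO. WT replicate 2 lay among the CREBBP-KO libraries. The shift of -0.64 (SE 0.24, limma adjusted p = 0.039) was lost when WT replicate 1 (-0.43, limma adjusted p = 0.208), WT replicate 3 (-0.51, adjusted p = 0.13), CREBBP-KO replicate 2 (-0.56, adjusted p = 0.113) or CREBBP-KO replicate 3 (-0.61, adjusted p = 0.0943) was left out of the limma fit, and also without the trend (adjusted p = 0.0774) or on ranks of -log10 p (adjusted p = 0.0507). A weak intronic interval at 47.7 kb, with folds of 2.64, 3.35 and 2.93, was found in the 3 WT lists and in none of the CREBBP-KO lists.

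SLC2A1 (ENSG00000117394.24) encodes the glucose transporter GLUT1 and lies on the minus strand of chromosome 1. Its promoter interval (chr1:42954541-42960343) had fold enrichments of 8.62, 8.98 and 8.66 in WT and 14.2, 16.2 and 18.3 in CREBBP-KO. The percentiles were 79.4, 80.9 and 78.7 against 92.7, 93.8 and 95.2. The groups were well apart, and the shift of 0.94 (SE 0.18, limma adjusted p = 0.000364) was past the threshold under all 17 alternatives, with a size from 0.52 on ranks of -log10 p to 1.53 at a fold of at least 10. Sizes under different filters are not on the same scale. Over the protein-coding starts of SLC2A1 together, the highest peak differed by 8.27 percentile points, compared with 14.2 at the canonical start. The 3 other tested intervals of the region were not called: at 34.3 kb the shift was 0.51 (SE 0.22, limma adjusted p = 0.0736), at -8.6 kb it was 0.27 (SE 0.22, adjusted p = 0.356), and at 17.4 kb, an internal start with the highest signal outside the promoter, it was 0.26 (SE 0.17, adjusted p = 0.232). This last interval was 19449 bp wide, and with summit windows its shift was 0.48 and called (limma adjusted p = 0.0334). An intronic interval at 26.7 kb was too weak for the filter, with folds of 2.52, 3.77 and 2.54 in WT and 6.10, 4.41 and 4.81 in CREBBP-KO. Without the filter its shift was 1.45 (SE 0.40, limma adjusted p = 0.0104). Tested intervals within 1 Mb outside the SLC2A1 region (34) had a median shift of 0.20.

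PGK1 (ENSG00000102144.15), on the X chromosome, encodes the first ATP-generating kinase of glycolysis. Its promoter had folds of 8.96, 7.75 and 9.13 in WT and 11.7, 9.59 and 9.94 in CREBBP-KO. The percentiles, 80.6, 76.0 and 80.4 against 89.1, 82.9 and 82.8, did not overlap, yet the shift was 0.23 (SE 0.21) and not called (limma adjusted p = 0.397). Because GENCODE places a PGK1 start far upstream, the region spanned 278.557 kb and took in promoters of ATP7A, COX7B and MAGT1. The promoter of TAF9B, downstream of the gene, also lay in the region. The strongest interval outside the PGK1 promoter was that of MAGT1, at -208.3 kb, with a shift of -0.26 (SE 0.20, limma adjusted p = 0.308). At -186.7 kb (chrX:77916893-77918499), in an intron shared by ATP7A and the long form of PGK1, folds were 6.59, 6.63 and 8.49 in WT and 3.93, 5.19 and 5.46 in CREBBP-KO. All CREBBP-KO libraries were below WT, with a shift of -1.12 (SE 0.30, limma adjusted p = 0.00582). That interval had entered the fit through WT only, and without the filter the shift was -0.73 (SE 0.23, limma adjusted p = 0.0231). The 897 tested intervals of the X chromosome had a median shift of -0.23.

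LDHA (ENSG00000134333.15) encodes the lactate dehydrogenase subunit that reduces pyruvate to lactate. The largest rise among the 39 tested intervals lay upstream of it, at -9.7 kb (chr11:18381821-18387072) between protein-coding genes. There the fold was 10.1, 10.1 and 9.91 in WT and 19.3, 23.7 and 22.8 in CREBBP-KO. The percentiles were 84.3, 84.7 and 82.8 against 97.1, 98.3 and 97.8. WT libraries were closely grouped and all CREBBP-KO libraries were above them. The shift was 1.26 (SE 0.16, limma adjusted p = 9.83e-06) and was past the threshold under all 17 alternatives, with a size from 0.64 on ranks of -log10 p to 1.94 at a fold of at least 10. As above, sizes under different filters are not on the same scale. At the LDHA promoter (chr11:18391139-18400634) the fold was 11.2, 11.6 and 15.6 in WT and 15.1, 15.0 and 19.7 in CREBBP-KO. WT replicate 3 overlapped the CREBBP-KO libraries, and the shift of 0.28 (SE 0.19) was not called (limma adjusted p = 0.245). It was 0.48 and called without WT replicate 3 (limma adjusted p = 0.0464), 0.15 without WT replicate 1 and 0.14 without CREBBP-KO replicate 3. The 22 tested intervals within 1 Mb outside the LDHA region had a median shift of 0.05.

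The letters of the LDHA promoter are given because the pathway acts through the hypoxia response element, whose core was searched as ACGTG and GCGTG on both strands (on the reverse strand CACGT and CACGC, so that CACGTG counts on both). Capitals mark the core. The promoter stretch ends just before the first annotated exon (RefSeq promoter table, GRCh38.p14, plus strand, chr11:18394313-18394559).
LDHA promoter: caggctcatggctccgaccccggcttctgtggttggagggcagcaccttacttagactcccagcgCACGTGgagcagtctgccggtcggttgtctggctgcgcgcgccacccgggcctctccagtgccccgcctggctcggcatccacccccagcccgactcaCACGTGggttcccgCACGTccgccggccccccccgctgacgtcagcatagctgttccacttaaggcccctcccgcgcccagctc
The LDHA promoter held 5 matches of ACGTG, 4 of them from the palindrome CACGTG, at positions -185, -184, -87, -86 and -73 from the start. Of all 35116 RefSeq promoters 43.2% held at least 1 core in the 250 bases upstream of the start, and 18.5% held ACGTG. Of 24919 tested intervals outside promoters 27.3% held a core in the 300 bases around the summit. Among the 18 tested distal intervals of the 10 regions, 3 held one (SLC2A1 at 34.3 kb, EPAS1 at 88.7 kb and PFKFB3 at -44.9 kb).

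PFKFB3 (ENSG00000170525.21) encodes the enzyme that makes fructose 2,6-bisphosphate, the activator of glycolytic flux, and its region of chromosome 10 held intervals that moved in both directions. At the canonical start (chr10:6200937-6205124) the fold was 4.59, 4.66 and 4.51 in WT and 7.96, 7.96 and 6.58 in CREBBP-KO. The percentiles were 53.7, 54.4 and 50.8 against 80.1, 78.1 and 71.2. All CREBBP-KO libraries were above WT, with a shift of 1.10 (SE 0.28, limma adjusted p = 0.00405). This interval had entered the fit through CREBBP-KO only, and with no filter the shift was 0.74 (SE 0.21, limma adjusted p = 0.0114). At the upstream start of the gene, at -58.3 kb (chr10:6144116-6146269), the fold was 16.3, 14.1 and 17.1 in WT and 12.9, 11.4 and 12.3 in CREBBP-KO. Here all CREBBP-KO libraries were below WT, with a shift of -0.67 (SE 0.17, limma adjusted p = 0.00358). The percentile at the canonical start minus that at the upstream start was -41.4, -38.8 and -45.0 in WT and -10.9, -9.01 and -16.6 in CREBBP-KO, so the upstream start was the stronger in every library. The difference between genotypes in this measure, which was chosen after the values were seen, was 29.6 percentile points (exact permutation test, two-sided, p = 0.1, the smallest that 3 libraries against 3 allow). Over all protein-coding starts of PFKFB3 the highest peak differed by 0.857 percentile points.

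Away from these starts, the intronic PFKFB3 interval at -44.9 kb (chr10:6156469-6159712) was higher, with folds of 13.2, 12.0 and 14.1 in WT and 20.4, 18.7 and 22.4 in CREBBP-KO. Its shift was 0.64 (SE 0.16, limma adjusted p = 0.00439), but 0.10 (limma adjusted p = 0.639) on ranks of -log10 p. The interval at -88.1 kb (chr10:6112344-6116351), with its summit in an exon of RBM17, was lower, with folds of 10.2, 9.52 and 9.90 in WT and 5.74, 5.63 and 7.21 in CREBBP-KO. Its shift was -1.11 (SE 0.24, limma adjusted p = 0.00144), and -0.73 without the fold filter (limma adjusted p = 0.00301). The groups overlapped at neither of these intervals. The strongest interval outside the PFKFB3 promoter, at another start at -38.8 kb, had percentiles of 94.8, 94.5 and 94.6 in WT and 95.8, 96.3 and 95.9 in CREBBP-KO and a shift of 0.09 (SE 0.15, limma adjusted p = 0.689). The other 3 tested intervals, at -66.7, -61.2 and 72.4 kb, were not called. The 26 tested intervals within 1 Mb outside the region had a median shift of -0.00.

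The sequences upstream of both PFKFB3 starts, which moved in opposite directions, are given from the same table, with cores in capitals (plus strand, chr10:6144671-6144920 for the upstream start and chr10:6202682-6202865, ending before the first annotated exon, for the canonical start). The SLC2A1 (minus strand, chr1:42958894-42959118) and PGK1 (plus strand, chrX:78103998-78104247) promoters, called higher and not called, are given for comparison.
PFKFB3 upstream start: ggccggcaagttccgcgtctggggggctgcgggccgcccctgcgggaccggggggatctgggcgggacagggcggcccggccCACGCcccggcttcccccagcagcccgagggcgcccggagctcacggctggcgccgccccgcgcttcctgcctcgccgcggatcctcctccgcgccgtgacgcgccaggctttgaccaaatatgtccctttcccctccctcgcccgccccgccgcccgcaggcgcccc
PFKFB3 canonical start: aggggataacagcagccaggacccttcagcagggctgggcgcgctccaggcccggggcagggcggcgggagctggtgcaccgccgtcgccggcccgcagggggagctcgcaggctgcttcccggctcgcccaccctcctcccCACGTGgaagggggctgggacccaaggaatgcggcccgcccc
SLC2A1 promoter: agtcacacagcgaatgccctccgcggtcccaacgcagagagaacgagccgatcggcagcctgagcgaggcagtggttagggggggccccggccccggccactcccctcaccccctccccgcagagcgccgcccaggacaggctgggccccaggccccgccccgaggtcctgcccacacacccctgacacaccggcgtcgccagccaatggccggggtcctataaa
PGK1 promoter: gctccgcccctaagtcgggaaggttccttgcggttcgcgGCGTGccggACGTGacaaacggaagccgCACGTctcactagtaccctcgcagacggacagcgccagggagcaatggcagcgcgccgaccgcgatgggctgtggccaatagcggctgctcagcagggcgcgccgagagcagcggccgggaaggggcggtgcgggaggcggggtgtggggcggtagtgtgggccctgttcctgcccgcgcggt
The canonical PFKFB3 start had 1 palindrome CACGTG, counted on both strands at -108 and -107, and the upstream start had 1 GCGTG core at -168. The SLC2A1 stretch had 0 cores, and PGK1 had 3, at -211, -202 and -183. Of all RefSeq promoters 32.2% held GCGTG.

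VEGFA (ENSG00000112715.26), the main angiogenic HIF target, had 2 intervals, of which the promoter was tested. The fold was 17.6, 17.4 and 20.1 in WT and 19.6, 18.5 and 23.6 in CREBBP-KO. Libraries of both genotypes were intermixed, with percentiles of 96.3, 96.7 and 97.9 against 97.2, 95.8 and 98.1 and a shift of -0.06 (SE 0.17, limma adjusted p = 0.813).

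ADM (ENSG00000148926.10), which encodes the vasodilator adrenomedullin, had the highest WT promoter level of the 10 genes. The fold was 23.6, 19.4 and 21.1 in WT and 23.1, 20.7 and 15.5 in CREBBP-KO. Only CREBBP-KO replicate 3 lay below all WT folds. The percentiles were 98.9, 98.0 and 98.3 in WT and 98.5, 97.1 and 92.4 in CREBBP-KO, with CREBBP-KO replicates 2 and 3 below all WT libraries. The shift of -0.46 (SE 0.19) was not called (limma adjusted p = 0.0614). The next interval upstream, at -11.1 kb (chr11:10288794-10296300), overlaps a promoter of SBF2 and had folds of 14.4, 17.3 and 17.2 in WT and 13.6, 12.0 and 13.5 in CREBBP-KO. All CREBBP-KO libraries were below WT, and the shift was -0.64 (SE 0.17, limma adjusted p = 0.00622). A pair of weak intronic intervals of SBF2 passed the threshold only in the fit without the filter: at -6.4 kb the shift was -1.36 (SE 0.42, limma adjusted p = 0.0212), and at -28.8 kb it was -0.86 (SE 0.28, adjusted p = 0.0294). A further weak interval of the ADM region, at -27.3 kb, with folds of 3.84, 3.80 and 3.13, was found in the 3 WT lists and in none of the CREBBP-KO lists. The 56 tested intervals within 1 Mb outside the ADM region had a median shift of -0.10.

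NDRG1 (ENSG00000104419.17), a stress-response gene often used as a readout of HIF activity, had promoter folds of 13.03, 13.7 and 14.9 in WT and 19.6, 22.99 and 21.9 in CREBBP-KO. The percentiles were 90.8, 92.5 and 93.2 against 97.2, 98.1 and 97.4. The groups did not overlap, with a shift of 0.62 (SE 0.16, limma adjusted p = 0.00474), but on ranks of -log10 p it was 0.18 (limma adjusted p = 0.326). The strongest interval outside the promoter, at 66.3 kb in an exon of CCN4, did not pass the filter. Its folds were 6.40, 4.41 and 5.17 in WT and 6.21, 5.94 and 4.96 in CREBBP-KO. Without the filter its shift was 0.09 (SE 0.23, limma adjusted p = 0.801). The interval at another NDRG1 start, at -6.3 kb, was too weak for the filter, with folds of 3.21, 3.80 and 3.34 in WT and 4.61, 7.41 and 4.72 in CREBBP-KO, and had a shift of 0.95 (SE 0.31, limma adjusted p = 0.0277) without it. The NDRG1 region held 6, 3 and 6 peaks in WT and 8, 11 and 8 in CREBBP-KO (exact permutation test, two-sided, p = 0.1). It also held the single interval of the 10 regions found in the 3 CREBBP-KO lists and absent from the WT lists, at 59.3 kb, with folds of 2.88, 3.40 and 2.73.

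CA9 (ENSG00000107159.14), a carbonic anhydrase that is nearly silent in most normoxic cells, had no promoter peak. Its region held 16 intervals, of which 5 were tested, and the tested ones lay in or near neighbouring genes. The interval at the promoter of CCDC107, at -15.8 kb (chr9:35657049-35662984), was called lower, with folds of 20.7, 18.3 and 22.1 in WT and 20.5, 17.3 and 17.3 in CREBBP-KO. The groups overlapped, and the shift of -0.50 (SE 0.17, limma adjusted p = 0.0262) was lost without WT replicate 1 (-0.51, adjusted p = 0.0512), WT replicate 3 (-0.39, adjusted p = 0.0851), CREBBP-KO replicate 2 (-0.43, adjusted p = 0.105) or CREBBP-KO replicate 3 (-0.42, adjusted p = 0.117) in the limma fit, without the trend (adjusted p = 0.0808) and on centred log2 folds (-0.24, adjusted p = 0.136). The strongest interval, at the promoter of TPM2 at 15.6 kb, had a shift of -0.10 (SE 0.18, limma adjusted p = 0.688). The last 30 bases before the CA9 start (plus strand, chr9:35673898-35673927) are shown because they carry a core without an H3K27ac peak.
CA9 promoter: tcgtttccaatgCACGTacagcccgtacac
The core began at position -18. Of the 11 RefSeq promoter entries matched to 8 of the members, 9 held a core in the 250 bases upstream, beside the 43.2% of all promoters. VEGFA and NDRG1 had no matched entry.

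By class, 104 intervals were distal, away from all protein-coding starts of the member gene and from the canonical starts of other protein-coding genes. Of these 18 were tested, 3 called higher (LDHA -9.7 kb, PFKFB3 -44.9 kb and EPAS1 111.5 kb) and 3 lower (PFKFB3 -88.1 kb, PGK1 -186.7 kb and EPAS1 22.7 kb). Of all tested intervals outside promoters 15.1% were called higher and 23.2% lower. Of 8 promoters of other genes in the regions 0 were called higher and 2 lower, beside the 27.2% and 7.5% of all tested promoter intervals. Those shares count canonical starts only. Of 4 tested other starts of the genes 0 were higher and 1 lower. Except for that of PGK1, which overlaps the ATP7A promoter, these belong to the intervals outside promoters, called 15.1% higher and 23.2% lower. Among the 39 tested intervals all CREBBP-KO percentiles lay above WT in 12 and below in 5, beside the 34.2% and 15.2% of all tested intervals. A peak in all libraries of one genotype and none of the other was found for 2 intervals in WT and 1 in CREBBP-KO. Over all merged intervals these shares were 1.08% and 2.66%. The 10 regions together held 96, 98 and 97 peaks in WT and 116, 106 and 86 in CREBBP-KO (exact permutation test, two-sided, p = 0.7). CREBBP-KO replicate 1, the longest list, had the most and replicate 3 the fewest. Without CREBBP-KO replicate 1 the difference of the means went from 5.67 to -1 peaks.

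The pathway was then read at the promoters of 41 further genes, of which 39 had a promoter peak in all 6 libraries and 2, EPO and EGLN3, had none. Of the 38 tested, 11 were called higher in CREBBP-KO, 3 lower and 24 were not called, beside the 27.2% and 7.5% of all tested promoters. Their median shift was 0.29, against 0.22 for all tested promoters. Among the inhibitors of HIF, 4 were tested and none was called: EGLN1, EGLN2, VHL and CITED2, with shifts between -0.09 and 0.39. Of the 2 other subunits, ARNT had a shift of -0.15 (SE 0.21, limma adjusted p = 0.606). HIF3A was called lower, with a shift of -0.47 (SE 0.16, limma adjusted p = 0.0274). At the HIF3A start itself the highest peak had folds of 16.2, 14.2 and 16.2 in WT and 3.89, 3.16 and 14.4 in CREBBP-KO, so CREBBP-KO replicate 3 stood apart from the other two, while the fit used the highest peak of the whole merged interval.

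Of the 32 other targets tested, 11 were called higher and 2 lower, beside the 27.2% and 7.5% of all tested promoters. The largest shift was that of JMJD6, a lysyl hydroxylase gene, with promoter folds of 16.0, 15.6 and 15.8 in WT and 36.1, 31.4 and 31.9 in CREBBP-KO and a shift of 1.33 (SE 0.17, limma adjusted p = 1.06e-05). ANGPTL4, an inhibitor of lipoprotein lipase, had folds of 3.44, 3.87 and 3.94 against 5.79, 6.35 and 7.59 (shift 1.27). INSIG2, which retains the sterol sensor complex in the endoplasmic reticulum, shifted by 1.23 and CA12, a membrane carbonic anhydrase related to CA9, by 1.11. For these 4 genes, picked for the size of their shifts, the groups did not overlap. Over all tested intervals 34.2% had all CREBBP-KO percentiles above WT. At their starts the WT folds of ANGPTL4, INSIG2 (3.74, 4.26 and 5.03) and CA12 (4.06, 3.83 and 4.21) were not all at least 5. On these values they passed the fold filter through CREBBP-KO only, and their shifts without the filter are not given here. The glycolytic genes ENO1 (0.66), PFKP (0.71) and TPI1 (0.53) were also higher, as were SLC16A3 (0.49), the lactate exporter, BNIP3 (0.67), a mitophagy receptor, VLDLR (0.72) and LOX (0.75), a collagen cross-linking enzyme. SLC2A3, the neuronal-type glucose transporter, was lower (-0.45, SE 0.17, limma adjusted p = 0.0363), as was P4HA1, a collagen prolyl hydroxylase subunit (-0.44, SE 0.16, adjusted p = 0.037). The SLC2A3 percentiles overlapped, at 97.4, 98.4 and 96.4 in WT and 96.6, 95.3 and 93.2 in CREBBP-KO. For P4HA1 the percentiles did not overlap (96.4, 97.3 and 98.2 against 95.1, 95.2 and 94.9), but the folds did. Neither gene was called lower on centred log2 folds or without the trend. Over the further pathway promoters of all roles together, the count called higher (11) ranged from 7 without WT replicate 2 or CREBBP-KO replicate 2 to 17 without WT replicate 3, and that called lower (3) from 0 to 2 when a library was left out.

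**Figure D3:**
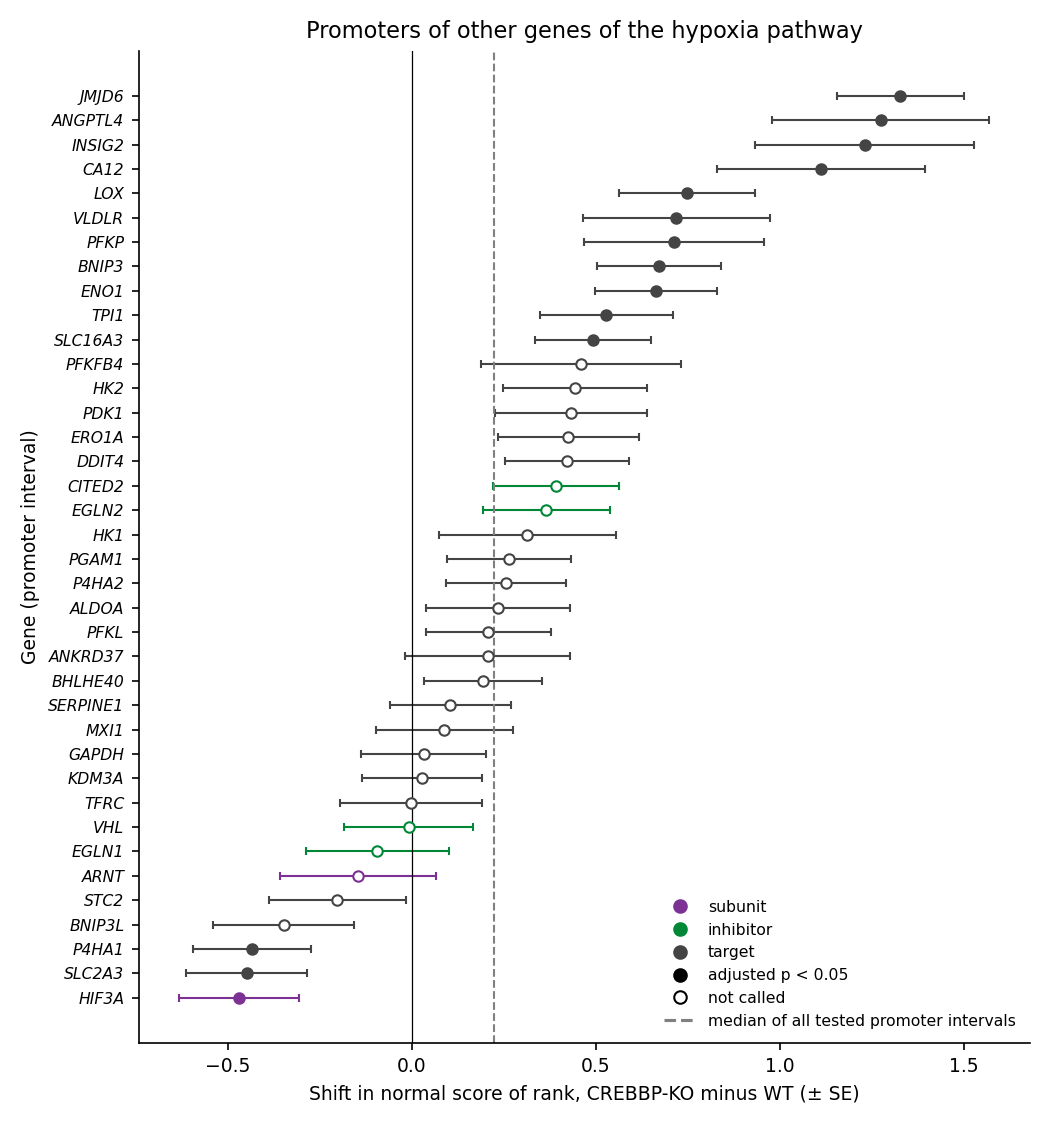
Rank shift of the tested promoter interval of 38 further genes of the hypoxia pathway in normal-score units (CREBBP-KO minus WT, points with SE bars), ordered by shift and coloured by role. Filled points were called at an adjusted p below 0.05, and the dashed line is the median of all tested promoter intervals, 0.22. JMJD6 lies highest at 1.33 and HIF3A lowest at -0.47.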

How the data were processed

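H3K27ac ChIP-seq of 3 WT and 3 CREBBP-KO HCEC-1CT libraries was analysed from the peak lists, 1 per library. The 2 input libraries were not used here. Reads had been run by the authors through nf-core's ChIP-seq workflow (2.0.0) on hg38, with MACS2 narrow peaks, and the submitters' processing notes name BWA. Whether the lists precede the downsampling that the study describes, and which input was the control, is not given in the sources used here. The fold in the deposited lists is a linear ratio over local background, and the deposited -log10 p and -log10 q give its significance (every peak had a q-value of at most 0.05). Read counts are absent from the lists, so the depth of each library is unknown and no counting interval was computed. The authors' read-based test was not repeated. Some items are withheld and not reported here.

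Peaks of the 6 lists were merged where they overlapped or touched. For each interval and library the highest fold was taken, with its percentile among all peaks of that list. Intervals with a peak in all 6 libraries and a fold of at least 5 in all 3 libraries of a genotype were fitted with limma 3.58.1 (trend, R 4.3.3) on normal scores of ranks, genotype as the single term, with Benjamini-Hochberg adjustment over all of them. Single values were compared by an exact permutation test (two-sided), which cannot give a p under 0.1 here. Promoters were windows of 1 kb either side of the canonical start in GENCODE release 44. p-values measure the spread between the populations of each genotype. The text names the 10 genes, for each the strongest interval outside its promoter and up to 3 with the largest called shifts, and up to 4 further pathway genes in each direction, while others are named as values beside them. Intervals called only without the fold filter, those with peaks in one genotype only and the remaining called pathway genes were named after their values were seen. The genes and lists were chosen with earlier results of these data known. The fit and the merging were tested on simulated data and against bedtools 2.31.1. Figures were drawn with matplotlib 3.10.9 in Python 3.11.15, using pandas 2.3.3, scipy 1.17.1 and numpy 2.4.6. Alternatives to the filter, merging, ranking, model, windows and list length were run, and fits were repeated without each library.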

Additional observations from a re-analysis of the deposited data

How the results depend on the processing

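Under the 17 alternatives to the fit, the counts of member intervals called higher (6) and lower (6) stayed within 1.5 times except for 3 lower at a fold of at least 10 and 3 higher on ranks of -log10 p. At a fold of at least 10 only 20 member intervals were tested, instead of 39. When a library was left out they ranged from 6 to 8 higher and from 4 to 8 lower. Without the promoters of other genes, an alternative chosen after seeing the data, they were 6 and 4. The further pathway promoters called higher (11) numbered 6 at a fold of at least 10 and 7 with summit windows, and 7 to 17 when a library was left out. Those called lower (3) numbered 1 on ranks of -log10 p, 0 on centred log2 folds and 0 without the trend, and 0 to 2 when a library was left out. Over all intervals 13005 of the 34864 tested were called, 6721 of 15294 at a fold of at least 10, and 10310 to 13112 when a library was left out. The difference in peaks over the 10 regions (5.67 more in CREBBP-KO) became -5 with a -log10 q of at least 5 and -8.33 with lists of equal length, and ranged from -1 to 14 when a library was left out. Intervals with peaks in one genotype only numbered 5 (WT) and 3 (CREBBP-KO) with summit windows, and 4 and 0 with lists of equal length, instead of 2 and 1. The causes were not tested.

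Shifts and differences that changed sign were small and were not called in any fit: the VEGFA promoter shift (0.0061 on ranks of -log10 p, 0.070 on centred log2 folds, and -0.17 to 0.053 when a library was left out) and its percentile difference (-0.42 with lists of equal length, -0.46 to 0.69 when a library was left out), the EPAS1 interval at 37.7 kb (0.056 on centred log2 folds and -0.16 to 0.13 when a library was left out, with percentile differences of -0.29 for -log10 p, -0.46 for lists of equal length and -0.65 to 2.06 when a library was left out), the CA9 interval at 15.6 kb (0.037 on centred log2 folds, -0.24 to 0.044 when a library was left out, with percentile differences of -0.72 to 0.61) and the PGK1 interval at -208.3 kb (a percentile difference of 1.31 for -log10 p).

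Same-numbered libraries had correlations of deviations of 0.01, 0.01 and 0.03, and the main fit did not treat the numbers as a pairing. Whether same-numbered libraries were prepared together is not given in the sources used here, and these correlations cannot decide it. With the replicate block 7 member intervals were called higher and 7 lower, and 12 and 3 of the further promoters, with 13080 called over all intervals. The HIF1A (0.46, limma adjusted p = 0.0485) and ADM (-0.46, adjusted p = 0.0425) promoters were called under the block. HIF1A was also called on centred log2 folds (0.43, adjusted p = 0.0124) and without WT replicate 1 or CREBBP-KO replicate 3, and ADM on ranks of -log10 p (-0.41, adjusted p = 0.0381) and without CREBBP-KO replicate 1. Other called rank shifts that moved by over 1.5 times without losing their call were those of ADM at -11.1 kb (-1.02) and PFKFB3 at -58.3 kb (-1.14) under the minimum fold of 10, and the PFKFB3 promoter (0.67) on ranks of -log10 p. Shifts under the minimum fold of 10 are on the scale of that smaller set of intervals, and centred log2 folds have a unit of their own.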
